A study of Mus musculus with 6 samples.

Results

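The eraser and reader genes of N6-methyladenosine (m6A) were followed in the messenger RNA of mouse pancreatic islets, the hormone-secreting cell clusters of the pancreas. The 10 genes were taken by name, and earlier results of these data were known when they were chosen. They were the erasers Fto and Alkbh5, the YTH-domain readers Ythdf1, Ythdf2, Ythdf3, Ythdc1 and Ythdc2, and the proposed readers Igf2bp2, Hnrnpa2b1 and Hnrnpc. Each of the 10 names had 1 row among the 54532 genes of the table. Islets were taken at an age of 7 weeks, in 2 groups of 3 libraries, with 3 mice pooled into each library. Controls carried the label Wtapflox/flox, the Wtap gene flanked by recombination sites. The second group was named Wtap-βKO, and the name says that Wtap is deleted in β cells, the cells that make insulin. The Cre driver, the strain and the sex of the mice are not given in the sources used here. The labels call the 3 libraries of a group independent biological replicates. The series asks what WTAP, a subunit of the complex that writes m6A, does in β-cell function.

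m6A is the most abundant internal modification of messenger RNA. Writers add it in the nucleus, erasers remove it, and readers bind RNA that carries it and pass the RNA on to splicing, export, translation or decay machinery. FTO and ALKBH5 are iron- and oxoglutarate-dependent demethylases of the AlkB family. The YTH domain holds the methylated base in an aromatic cage. The YTHDF proteins are cytoplasmic, and YTHDF2 is best known for bringing methylated RNA to deadenylation and decay. YTHDC1 is nuclear, and YTHDC2 carries an RNA helicase. IGF2BP2 binds RNA through KH domains and is known for stabilizing its targets, and its human gene is a type 2 diabetes risk locus. HNRNPA2B1 and HNRNPC are abundant nuclear RNA-binding proteins of the hnRNP family, for which binding near m6A has been attributed in part to the change that the mark makes in RNA structure.

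GGACT, written GGACU in RNA, is one common form of the sequence that the writer complex methylates, and writer sites are known to be dense around stop codons. In the GENCODE M21 transcripts (GRCm38) with the longest coding sequence, GGACT occurred at least once in 8 of the 10 genes, against 91.3% of 12684 expressed coding genes. It occurred 1.75 times per kilobase in Alkbh5, 1.21 times in Ythdf2 and not at all in Ythdc1 or Hnrnpa2b1, against a median of 1.05 over those coding genes (lower and upper quartiles 0.637 and 1.54). The transcripts scanned for Ythdc1 and Hnrnpa2b1 hold 2960 and 1728 bases, of 13651 and 6584 annotated exon bases. The rest of their exons was not scanned. Ythdf2 had 2 matches within 200 bases of its last coding base, Fto, Alkbh5 and Ythdc2 had 1 each, and the other 6 genes had none, where 39.8% of the coding genes had at least 1. The match nearest to the stop codon is shown for the erasers and the YTHDF genes, because they hold the only member called changed. GGACT is in capitals, with 10 bases on each side.
Fto, chr8:91666292-91666316, plus strand: cgagtcgtccGGACTttaccagtac
Alkbh5, chr11:60554423-60554447, plus strand: tgccctcttgGGACTctggctaatc
Ythdf1, chr2:180910958-180910982, minus strand: agtcccctgtGGACTacggcaccag
Ythdf2, chr4:132186832-132186856, minus strand: aagaaaattaGGACTttttttctta
Ythdf3, chr3:16204257-16204281, plus strand: aggcatgactGGACTgaaaattggt
The match of Ythdf2 lay in its 3′ untranslated region, 83 bases past the last coding base, and that of Alkbh5 23 bases past it. Those of Fto, Ythdf1 and Ythdf3 lay in coding exons, 128, 307 and 1176 bases before the end of the coding sequence. A match is a run of letters, and methylation was not measured in these libraries.

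The deposited values are FPKM, which divide the fragments of a gene by its length in kilobases and by a library size. Here that size was not the read total of the library. It was 0.952 to 0.988 times the recovered reads in controls and 1.04 to 1.07 times in Wtap-βKO libraries. The libraries held between 16353297 and 18682745 recovered reads, and a member was covered by between 237 and 11784 reads in a library. The difference between the groups is given as Wtap-βKO minus control on the scale of log2(FPKM + 1), which understates the change of low genes, with the standard error (SE) and the adjusted p of limma over the 15927 genes whose mean FPKM reached 0.5. A gene is called changed at an adjusted p under 0.05. All 10 members passed the filter. The call rate over the whole table was 20.1%, 8.77% higher and 11.3% lower, and the 3 values of one group lay wholly above or below those of the other in 41.3% of genes. Of the called genes 43.7% were higher, against 53.8% when the scaling left out the 50 highest genes and 68.1% when values were scaled to total recovered reads.

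Wtap itself, the targeted gene, was 10.5, 11.4 and 11.6 FPKM in the 3 controls and 11.2, 11.9 and 12.3 under the label Wtap-βKO (log2 difference 0.07, SE 0.063, adjusted p = 0.475 by limma). The target was thus not lower under that label, and every direction given is that of the libraries as labelled. The labels do not state which part of Wtap is deleted, and the value covers all exons and all islet cells, so whether it checks the labels cannot be told. The insulin genes Ins1 and Ins2, which define β cells, together took between 28.9% and 32.6% of summed FPKM in controls and between 18.8% and 19.2% in the other group, and Gcg, the glucagon gene of α cells, was 22504 ± 2122 and 36405 ± 5238 FPKM (SD, n = 3 each; adjusted p = 0.089 by limma). Of 9 β-cell markers 7 were called lower (summed level 134500 to 154700 FPKM in controls, 81580 to 92200 in Wtap-βKO), of 5 α-cell markers 4 were called higher (21210 to 25410 and 33740 to 44590) and of 7 mesenchymal markers 5 were called higher (28.38 to 34.63 and 50.45 to 61.68). These are 77.8%, 80% and 71.4%, against 20.1% of all genes. Ins2 (adjusted p = 0.190), Iapp (13167 and 12959 FPKM, adjusted p = 0.935 by limma) and Gcg were not called. Ins1 and Ins2 made up most of the β-cell sum and Gcg most of the α-cell sum, so those sums mainly repeat these genes. In the remaining lists most of the calls were higher. Their shares called lay between 20% and 25%, near the 20.1% of all genes, except for the endothelial list (40%) and the plasma- and B-cell list. Of 4 δ- and PP-cell markers 1 was called higher (15440 to 17330 and 18290 to 34460), of 9 acinar markers 2 (109.2 to 187.6 and 190.7 to 265.6), of 5 endothelial markers 2 (65.33 to 78.75 and 82.55 to 91.44), and of 5 ductal markers 1 (116.0 to 127.6 and 132.7 to 180.7). Of 5 macrophage markers 1 was called higher (76.50 to 84.03 and 90.47 to 97.46), of 4 red blood cell genes 1 (29.14 to 33.68 and 44.39 to 52.62), and of 4 plasma- and B-cell markers 3 were called higher and 1 lower. No list summed to 0 in any library. Amy2b (acinar) and Cftr (ductal) fell under the filter. The part of these cell types in the members' values was not tested. In bulk islets, fewer cells of a type and less RNA per cell cannot be told apart.

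Ythdf2, which encodes the reader of decay, was the only member of the 10 called changed. In control replicates 1 to 3 it was 7.05, 6.84 and 7.25 FPKM (565, 494 and 590 reads). In the same order it was 10.2, 9.79 and 10.7 FPKM in the libraries labelled Wtap-βKO (882, 801 and 840 reads). Every library labelled Wtap-βKO was above every control, and the groups were separated by more than the whole range within either. Mean FPKM rose from 7.05 ± 0.207 to 10.2 ± 0.434 (SD, n = 3 each), 1.45-fold, with a log2 difference of 0.48 (SE 0.060, 95% interval 0.34 to 0.62, adjusted p = 0.0031 by limma). By unadjusted p it stood at place 480 of the 15927 genes. The call held in all 18 alternatives, with a log2 difference between 0.45 and 0.58 and an adjusted p between 0.000406 and 0.0172 by limma. Among these, median-of-ratios scaling divided every library by the same 1.007 and could hardly move a call. The gene is at chr4:132184912-132212303 on the minus strand (GRCm38). Its exons overlap no other annotated gene, and its near copies in the annotation, 2 in all, summed to a mean of 0.0593 FPKM in controls and 0.0203 in the other group. With 1 of 10 members called, the share of called members was 10%, below the 20.1% of the whole table. At an unadjusted p under 0.05 stood 3 members (Ythdf2, Ythdf1 and Fto), against 34.9% of all genes, and limma voom on recovered reads called 2 (Ythdf2 and Fto), against 25.7%.

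**Figure D1:**
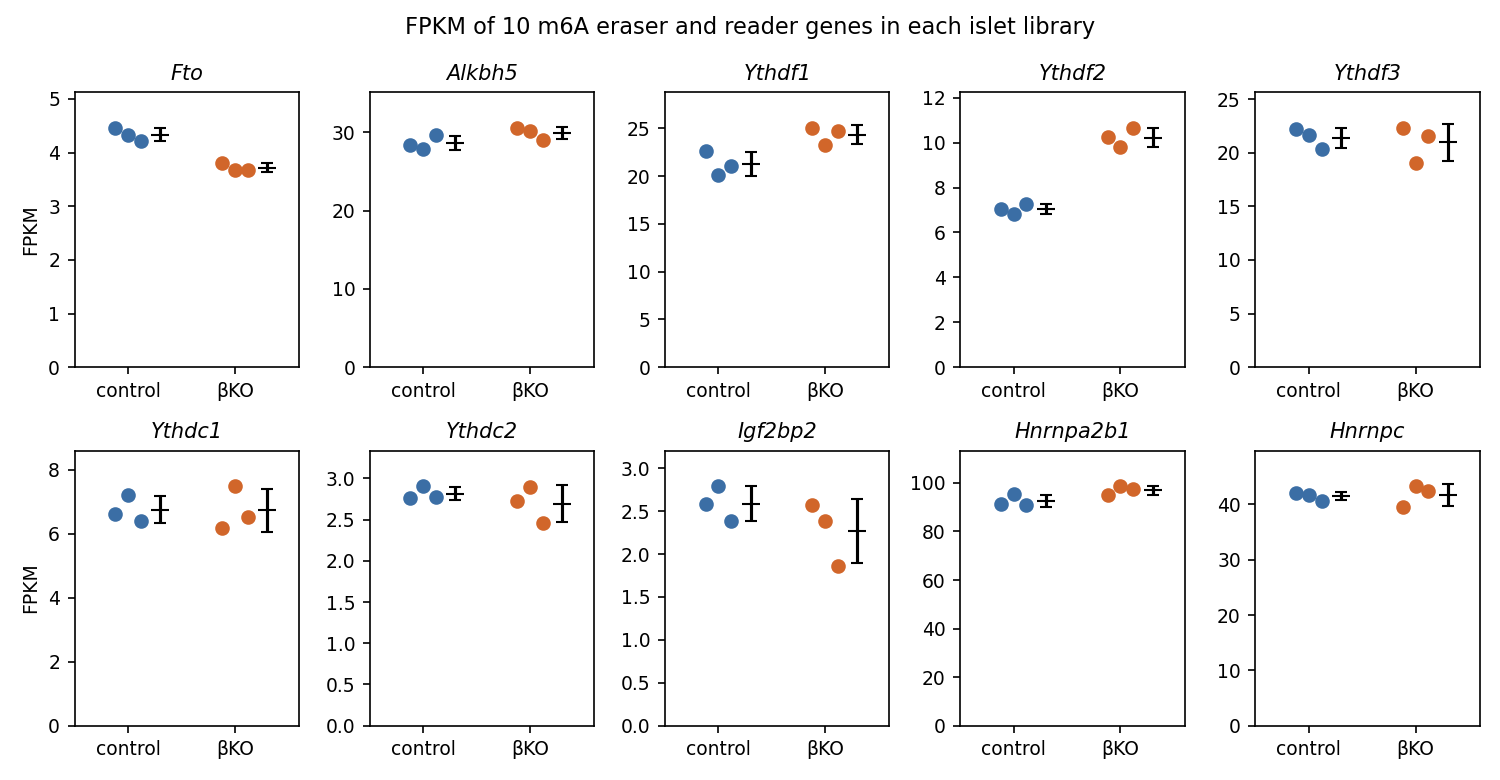
FPKM of each of the 10 genes in every library (blue points, controls; orange points, Wtap-βKO; black marks, mean and SD of 3 libraries; each panel has its own linear axis from 0). The 3 Ythdf2 values labelled Wtap-βKO, 9.79 to 10.7, sit above the 3 controls, 6.84 to 7.25, and Fto shows the smaller gap in the other direction.

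Ythdf1 (chr2:180904377-180920949, minus strand), the paralog most often tied to translation of methylated RNA, was 22.6, 20.1 and 21.002 FPKM in controls and 25.03, 23.2 and 24.7 in the libraries labelled Wtap-βKO. The groups did not overlap, but the lowest Wtap-βKO value lay only just above the highest control. Its mean was 21.2 ± 1.26 and 24.3 ± 0.976 (SD, n = 3 each), 1.14-fold, and it did not pass the test (log2 difference 0.19, SE 0.063, adjusted p = 0.0796 by limma). A call was reached under 2 of 18 alternatives, scaling to total recovered reads (0.30, adjusted p = 0.0269) and quantile normalization (0.26, adjusted p = 0.0467 by limma). Its adjusted p reached 0.217 without control replicate 2.

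Ythdf3 (chr3:16183212-16217037, plus strand), the remaining YTHDF paralog, was 22.2, 21.6 and 20.3 FPKM in controls and 22.3, 19.0 and 21.6 in the libraries labelled Wtap-βKO. The groups overlapped over most of their range, and replicate 2 labelled Wtap-βKO was the lowest of all 6. The log2 difference was -0.03 (95% interval -0.20 to 0.15, adjusted p = 0.815 by limma), and its sign turned under 3 scalings and without replicate 2 labelled Wtap-βKO (0.04).

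Within each library the 3 YTHDF genes made up a different mix in the 2 groups. Their summed level was 51.9, 48.6 and 48.6 FPKM in controls and 57.6, 52.0 and 56.9 in the libraries labelled Wtap-βKO, a ratio of means of 1.12. Ythdf2 took 13.6%, 14.1% and 14.9% of that sum in controls and 17.8%, 18.8% and 18.7% in the other group, so its share differed by 4.23 percentage points with no overlap. Ythdf3 took 43.0% ± 1.35 and 37.7% ± 1.11 (SD, n = 3 each), also with no overlap, and the share of Ythdf1 overlapped (42.8% ± 1.17 and 43.8% ± 0.677). Ythdf3 FPKM was 3.04 times that of Ythdf2 in controls and 2.05 times in Wtap-βKO libraries. Such shares do not move with a scaling that multiplies a whole library. Within a library the shares sum to the whole, so a higher Ythdf2 share entails a lower share of the other paralogs together. The lower Ythdf3 share is thus not a separate result. The shares were not tested and are given as a description.

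**Figure D2:**
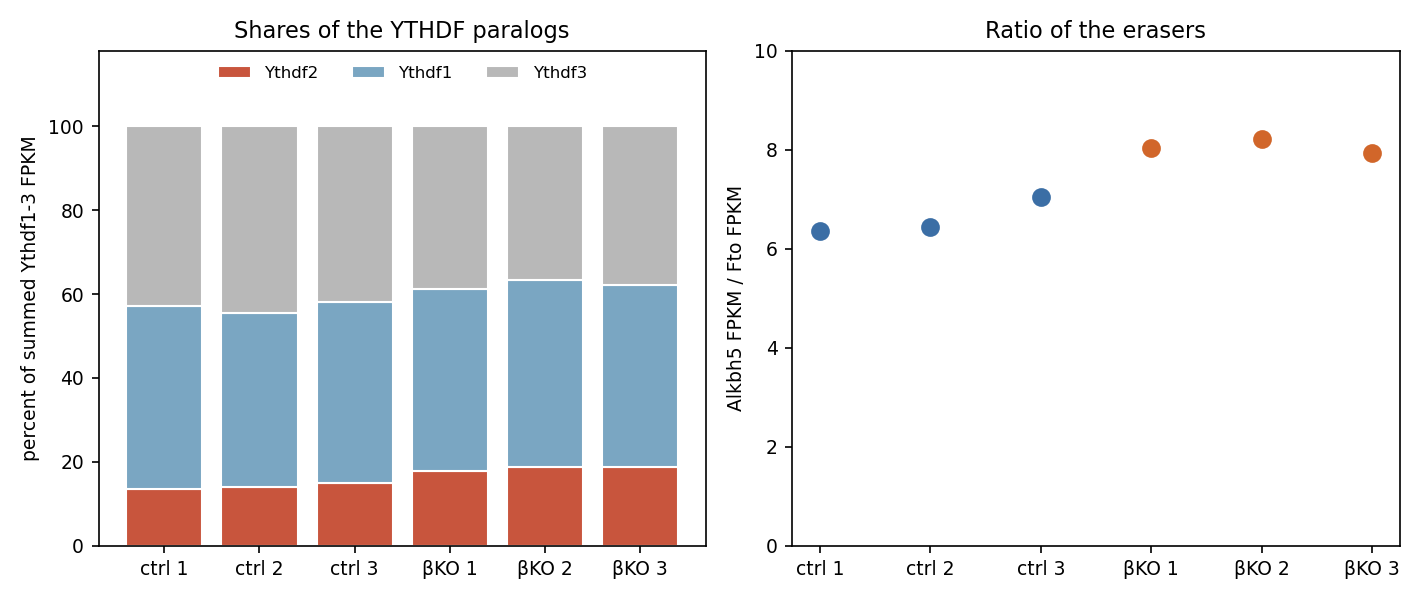
Left, share of each YTHDF gene in the summed FPKM of the 3 (stacked bars, percent, 1 bar per library); right, Alkbh5 FPKM divided by Fto FPKM (points; blue, controls; orange, Wtap-βKO). The Ythdf2 share is 13.6% to 14.9% in controls and 17.8% to 18.8% in Wtap-βKO libraries, and the eraser ratio is 6.37 to 7.04 and 7.92 to 8.21.

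Neither eraser passed the test. Fto, whose human gene carries the best known common obesity variants, was 4.46, 4.33 and 4.21 FPKM in controls (1018, 891 and 976 reads) and 3.81, 3.68 and 3.67 in the libraries labelled Wtap-βKO (936, 859 and 824 reads). All 3 Wtap-βKO values lay below all controls. The mean was 4.33 ± 0.124 and 3.72 ± 0.0786 (SD, n = 3 each), a ratio of 0.859, with a log2 difference of -0.18 (SE 0.064, 95% interval -0.33 to -0.02) and an adjusted p of 0.0995 by limma. A call was reached under 1 of 17 alternatives, limma voom on recovered reads (log2 difference -0.22, adjusted p = 0.042). When values were scaled to total recovered reads the difference was -0.09 (adjusted p = 0.429). Of the gene (chr8:91313525-91668439, plus strand), 3.44% of the exon bases are shared with 4831440D22Rik and Gm45427 on the other strand, both listed at 0.127 FPKM or less in every library.

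Alkbh5 (chr11:60536381-60558512, plus strand), the eraser with the higher FPKM, was 28.4, 27.9 and 29.6 FPKM in controls and 30.6, 30.2 and 29.1 in the libraries labelled Wtap-βKO. The groups overlapped, with 2 of 3 Wtap-βKO values above all controls. The log2 difference was 0.06 (95% interval -0.06 to 0.19, adjusted p = 0.428 by limma). The ratio of Alkbh5 to Fto FPKM was 6.37, 6.44 and 7.04 in controls and 8.03, 8.21 and 7.92 in Wtap-βKO libraries, with no overlap. The size of this ratio depends on the length used: per kilobase of 1 coding transcript it was 1.89 in controls and 2.30 in Wtap-βKO libraries. The sum of both genes overlapped (33.0 ± 0.826 and 33.7 ± 0.860 FPKM).

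The YTHDC readers did not pass the test. Ythdc1 (chr5:86804221-86836659, plus strand), the nuclear reader linked to splicing and export, was 6.61, 7.22 and 6.41 FPKM in controls and 6.17, 7.48 and 6.53 in the libraries labelled Wtap-βKO. Each group spanned most of the other, and replicate 2 was the highest library in both. Its log2 difference was -0.01 (95% interval -0.20 to 0.19, adjusted p = 0.973 by limma), with the sign turning in 6 of 18 alternatives. Ythdc2 (chr18:44827746-44889724, plus strand), the helicase reader best known from germ cells, was 2.76, 2.90 and 2.77 FPKM in controls and 2.72, 2.90 and 2.46 in Wtap-βKO libraries. These groups overlapped too, and the log2 difference was -0.05 (95% interval -0.24 to 0.14, adjusted p = 0.711 by limma).

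Igf2bp2 (chr16:22059009-22163299, minus strand) had the lowest FPKM of the members and the largest SE of the log2 difference (0.109). It was 2.58, 2.79 and 2.38 FPKM in controls (335, 326 and 314 reads) and 2.57, 2.38 and 1.86 in the libraries labelled Wtap-βKO (359, 316 and 237 reads). Replicate 3 labelled Wtap-βKO was the lowest of the 6, and the other 2 of its group lay within the control range. The log2 difference of -0.14 (95% interval -0.40 to 0.12, adjusted p = 0.416 by limma) came to -0.04 without that replicate. Of its paralogs, known as oncofetal RNA-binding proteins, Igf2bp1 was covered by 12, 7 and 7 reads in controls and 0, 0 and 1 in Wtap-βKO libraries, and Igf2bp3 by 16, 14 and 9 reads and 38, 31 and 27 reads. The groups of both paralogs were apart, in opposite directions. Of the exon bases of Igf2bp3, 18.7% are shared with Malsu1 on the other strand, which was at 2.50 to 3.23 FPKM, and reads of the pair cannot be told apart without strand. Both fell under the filter, and with no filter neither passed the test (adjusted p = 0.197 and 0.101 by limma). Over the 3 libraries labelled Wtap-βKO Igf2bp2 was covered by 912 reads, Igf2bp1 by 1 and Igf2bp3 by 96, so Igf2bp2 held most reads of the family there.

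The hnRNP readers had the highest FPKM of the members. Hnrnpa2b1 (chr6:51460932-51469894, minus strand), linked to nuclear processing of RNA, was 91.4, 95.5 and 90.9 FPKM in controls and 94.9, 98.6 and 97.6 in the libraries labelled Wtap-βKO. The groups overlapped by 1 library, and the log2 difference was 0.07 (95% interval -0.05 to 0.18, adjusted p = 0.388 by limma). A call was reached under 1 of 18 alternatives, scaling to total recovered reads (log2 difference 0.18, adjusted p = 0.0389). Hnrnpc (chr14:52073377-52104028, minus strand), which binds uridine runs in nascent RNA, was 42.2, 41.7 and 40.7 FPKM in controls and 39.5, 43.3 and 42.4 in Wtap-βKO libraries, so the Wtap-βKO values enclosed all controls. Its log2 difference was 0.01 (95% interval -0.12 to 0.14, adjusted p = 0.943 by limma), and its sign turned in 3 of the fits that left out 1 library. The closest paralog of Hnrnpc, Raly, was 19.8 ± 0.192 and 18.7 ± 2.57 FPKM (SD, n = 3 each; adjusted p = 0.576 by limma). A processed pseudogene nearly identical to Hnrnpc, Gm12696, was listed at a mean of 1.88 FPKM in controls and 1.79 in the other group, so some reads may be split between the copies.

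**Figure D3:**
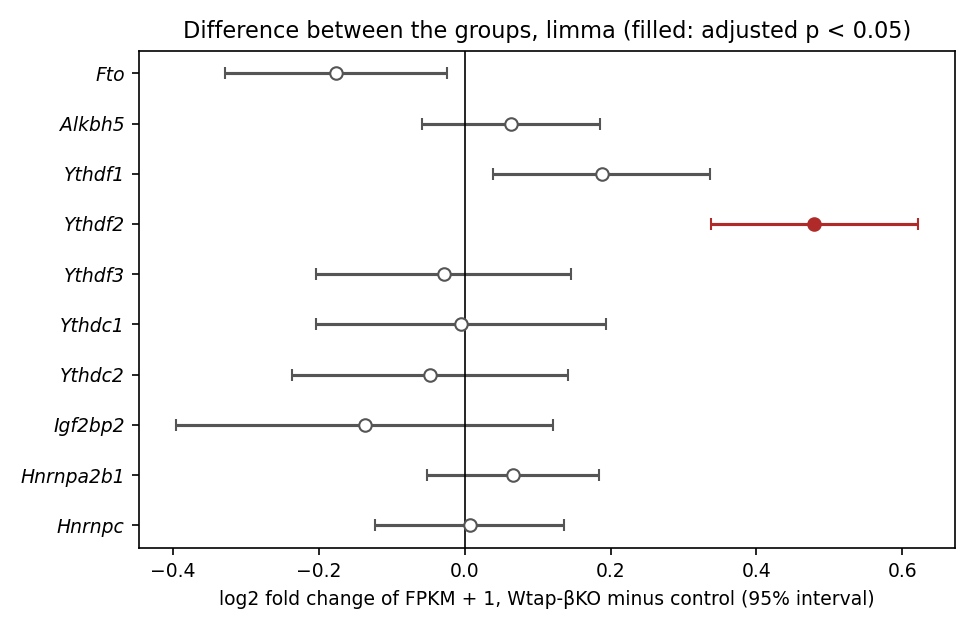
Log2 difference in FPKM + 1 between the groups for each member (points), with limma's 95% interval (bars); the filled point passed the adjusted p threshold of 0.05. Ythdf2, at 0.48 with an interval from 0.34 to 0.62, stands to the right of the other 9 points, which lie between -0.18 and 0.19.

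The intervals of the uncalled members are on the scale of log2(FPKM + 1). That scale understates the change of low genes such as Igf2bp2, and the intervals hold for the deposited scaling only. Over the 9 uncalled members, the 95% intervals of the log2 difference reached at most 0.34 upward (Ythdf1) and -0.40 downward (Igf2bp2). With values scaled to total recovered reads, the Ythdf1 difference itself was 0.30. The median log2 difference of the 10 members was 0.00078, against -0.0054 over all genes tested. Groups did not overlap for 3 members, 2 higher in Wtap-βKO (Ythdf1 and Ythdf2) and 1 lower (Fto). Of all tested genes 41.3% did not overlap, 19.1% higher and 22.1% lower. The count of members moved with the scaling: it was 5 without the 50 highest genes (40.8% of all genes), 5 with total recovered reads (42.3%) and 6 with quantile normalization (40.6%).

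Per kilobase of gene, the order of levels in controls was Hnrnpa2b1 (92.6 FPKM), Hnrnpc (41.5), Alkbh5 (28.6), Ythdf3 (21.4), Ythdf1 (21.2), Ythdf2 (7.05), Ythdc1 (6.74), Fto (4.33), Ythdc2 (2.81) and Igf2bp2 (2.59). The ranges of Ythdf3 and Ythdf1, of Ythdf2 and Ythdc1, and of Ythdc2 and Igf2bp2 overlapped in controls, and the other neighbours were apart. In Wtap-βKO libraries Ythdf1 (24.3) stood above Ythdf3 (20.96) and Ythdf2 (10.2) above Ythdc1 (6.73), with no overlap within either pair. The order depends on the length used, because the deposited gene length covers every annotated exon. Per kilobase of 1 coding transcript, Ythdc1 came to 31.1 in controls, level with Ythdf1 (31.0) and Alkbh5 (29.9), and Fto to 15.8, above Ythdf2 (7.81). On that length Ythdf1 already stood above Ythdf3 (23.3) in controls, and Ythdc1 (31.0) stood above Ythdf2 (11.3) in Wtap-βKO libraries. The order within either pair was then the same in both groups. This second length was chosen after the data were seen.

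The promoters of Ythdf2 and Fto, the members with the strongest differences in each direction, and of Ythdf1 are shown from 250 bases before to 50 bases after the RefSeq start site (GRCm38.p6). Capitals mark every match, on either strand, to GGGCGG (the core of the SP1 site), CCAAT (the NF-Y box), TATAAA (the TATA box) and CACGTG (the palindromic E-box). No matches overlap in the windows shown.
Ythdf2 promoter, chr4:132212207-132212506, minus strand: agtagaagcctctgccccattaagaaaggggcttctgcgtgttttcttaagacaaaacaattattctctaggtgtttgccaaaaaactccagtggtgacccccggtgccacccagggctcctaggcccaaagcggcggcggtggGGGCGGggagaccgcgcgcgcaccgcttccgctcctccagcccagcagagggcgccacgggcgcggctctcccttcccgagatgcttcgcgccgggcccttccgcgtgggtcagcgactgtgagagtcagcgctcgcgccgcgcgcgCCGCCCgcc
Ythdf1 promoter, chr2:180920887-180921186, minus strand: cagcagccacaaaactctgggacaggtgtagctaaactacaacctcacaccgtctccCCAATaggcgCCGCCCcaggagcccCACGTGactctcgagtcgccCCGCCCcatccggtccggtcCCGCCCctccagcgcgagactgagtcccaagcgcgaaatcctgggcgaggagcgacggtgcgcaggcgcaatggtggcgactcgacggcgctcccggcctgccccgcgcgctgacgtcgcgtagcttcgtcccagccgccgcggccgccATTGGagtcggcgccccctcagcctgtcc
Fto promoter, chr8:91313275-91313574, plus strand: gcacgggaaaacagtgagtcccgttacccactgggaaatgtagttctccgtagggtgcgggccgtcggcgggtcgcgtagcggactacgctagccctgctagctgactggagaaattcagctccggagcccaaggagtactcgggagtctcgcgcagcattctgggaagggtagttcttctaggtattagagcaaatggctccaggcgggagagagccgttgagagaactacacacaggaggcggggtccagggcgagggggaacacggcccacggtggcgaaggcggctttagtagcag
Ythdf2 held 2 matches to GGGCGG and none to the other motifs, Ythdf1 held 3 to GGGCGG, 2 to CCAAT and 1 to CACGTG, and Fto held none of the 4. Over 32851 windows of the same length, 35.7% held GGGCGG, 37.4% CCAAT, 13.6% TATAAA and 7.15% CACGTG. All 8 members with a window held more CpG pairs than the median of 7, between 18 (Alkbh5) and 47 (Igf2bp2). That median is over all windows, which are not limited to expressed genes. The Alkbh5 count lay under the 75th percentile of 20, and its RefSeq start site lies 1302 bases from the deposited gene start. None of the 8 held TATAAA. Binding was not measured here, and a match is only a description of the letters.

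Over the 6 lists of genes around the members, 13 of 61 tested genes were called, 3 higher and 10 lower, which is 21.3% against 20.1% of all genes. Of 8 writer genes 1 rose, Rbm15, whose protein recruits the complex to RNA, from 5.01 ± 0.0775 to 8.37 ± 0.882 FPKM (SD, n = 3 each), 1.67-fold (log2 difference 0.64, SE 0.082, adjusted p = 0.0035 by limma). That is 12.5% of the list against 20.1% of all genes, and the list's median log2 difference was -0.00047. Of 6 other RNA adenosine methyltransferase genes 1 fell, Mettl5, the methyltransferase of 18S ribosomal RNA, from 3.78 ± 0.313 to 2.63 ± 0.412 (adjusted p = 0.0393 by limma). Under 9 of 17 alternatives Mettl5 was no longer called (adjusted p as high as 0.118), among them leaving out any control replicate or replicate 1 or 2 labelled Wtap-βKO, and 6.93% of its exon bases are shared with Ssb and Gm13625. Of 7 other AlkB homologues limma called 0, with 2 at an unadjusted p under 0.05, limma voom on recovered reads also called 0, and the list's median log2 difference was 0.12.

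Of 9 tested genes for other proposed m6A-binding proteins 1 fell, Rbmx, which encodes HNRNPG, from 13.2 ± 0.432 to 9.63 ± 0.871 FPKM (SD, n = 3 each; log2 difference -0.42, SE 0.074, adjusted p = 0.0099 by limma). Of 10 tested genes for partners of the readers 3 fell and 1 rose, 40% of the list against 20.1% of all genes. The 20.1% covers genes down to a mean FPKM of 0.5, many of them lower than those of this list. With a filter at a mean FPKM of at least 5, 1026 genes were called higher and 1571 lower of 7830. Among the partners of YTHDF2, Cnot1, the scaffold of the CCR4-NOT deadenylase, fell from 13.9 ± 0.561 to 10.8 ± 0.754 (adjusted p = 0.0167), and Rida, also called Hrsp12 and known to link YTHDF2 to endonuclease cleavage, rose from 3.29 ± 0.287 to 5.97 ± 1.43 (adjusted p = 0.0183 by limma). Xrn1, the cytoplasmic exonuclease that binds YTHDC2, fell from 5.13 ± 0.261 to 3.81 ± 0.300 (adjusted p = 0.0206), and Pabpc1, a poly(A)-binding protein gene, from 44.8 ± 2.51 to 37.0 ± 2.50 (adjusted p = 0.0382 by limma). Scaling to total recovered reads ended the calls of Cnot1 (adjusted p = 0.0551), Xrn1 (0.0627) and Pabpc1 (0.101 by limma). The call of Cnot1 was also lost without control replicate 1 or 3, and that of Xrn1 without control replicate 1 or 3 or replicate 3 labelled Wtap-βKO. That of Rida was lost without control replicate 1 or 2, and that of Pabpc1 in 8 of 18 alternatives, including leaving out any 1 library but replicate 2 labelled Wtap-βKO. The germ-cell partner genes Meioc and Rbm46 fell under the filter.

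Of 21 other hnRNP genes 5 fell and 1 rose, 28.6% of the list against 20.1% of all genes. The list's median log2 difference was -0.11, against -0.0054 over all genes tested. All 21 had a mean FPKM of at least 5, and genes at that level were called more often. The fit at that filter called 1026 genes higher and 1571 lower of 7830, with a median log2 difference of -0.0455. Against that background the list does not stand out by its share called. Ptbp1, a splicing repressor, fell from 42.3 ± 0.725 to 30.6 ± 1.43 FPKM (SD, n = 3 each; adjusted p = 0.0025 by limma), though 20.7% of its exon bases are shared with genes on the other strand. Hnrnpul1 fell from 19.2 ± 0.625 to 14.8 ± 0.197 and Hnrnpll from 5.99 ± 0.0630 to 4.47 ± 0.165, while Hnrnpa0 rose from 58.3 ± 2.43 to 74.0 ± 2.94. Hnrnpd and Hnrnpul2 complete the count of those that fell, and they were named after their values were seen. All 4 of Ptbp1, Hnrnpul1, Hnrnpll and Hnrnpa0 kept their call in all 18 alternatives. Over these 6 lists, scaling to total recovered reads gave 5 genes higher and 4 lower in place of 3 and 10.

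**Figure D4:**
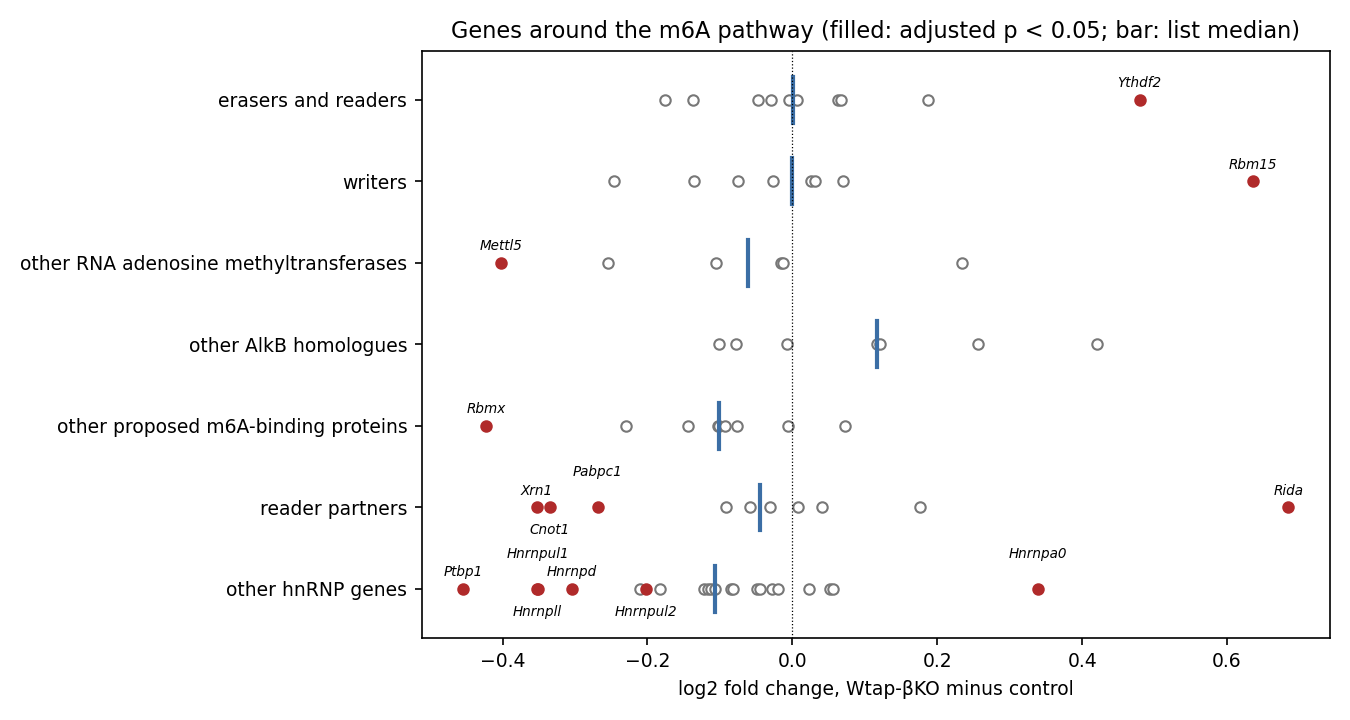
Log2 difference of each tested gene in the member list and in 6 lists around it (points; filled and named, adjusted p under 0.05; vertical bars, list medians). Ythdf2 (0.48), Rbm15 (0.64) and Rida (0.68) lie farthest right, and Ptbp1 (-0.45), Rbmx (-0.42) and Mettl5 (-0.40) farthest left.

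**Figure D5:**
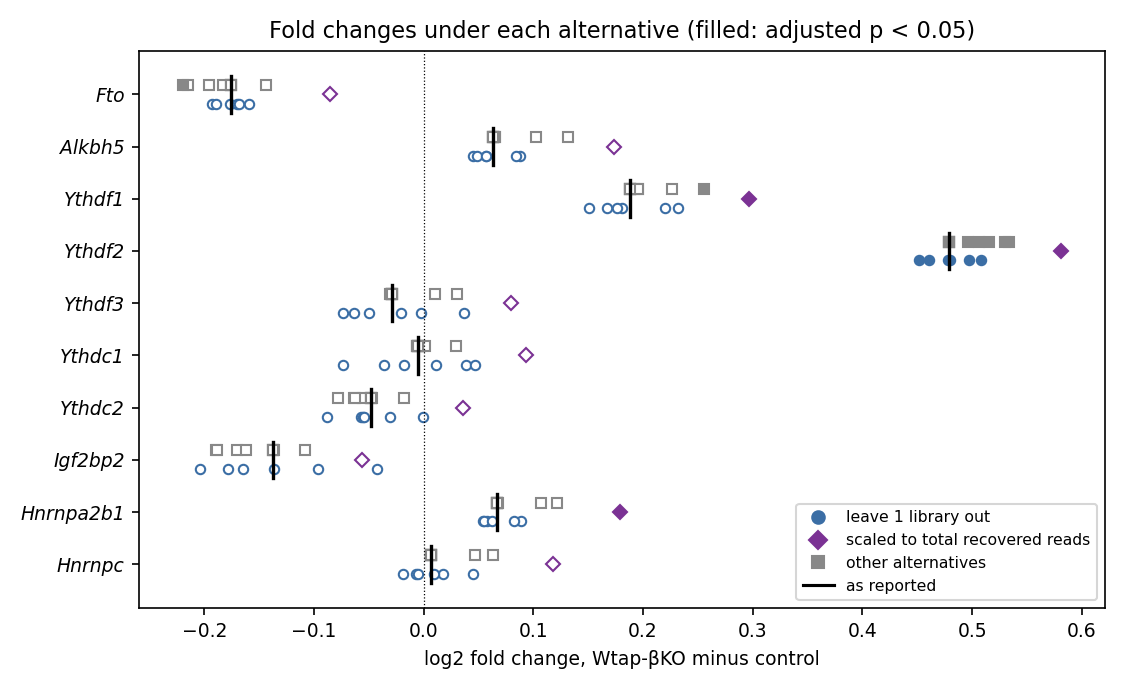
Log2 difference of each member as reported (black lines) and under each alternative (circles, 1 library left out; diamonds, scaling to total recovered reads; squares, other alternatives; filled, adjusted p under 0.05). Ythdf2 stays between 0.45 and 0.58 and is filled throughout, while scaling to total recovered reads moves every member to the right.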

How the data were processed

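Poly-A RNA of 6 islet libraries was sequenced in pairs without a strand-marking step, per the labels' protocols. The authors deposited 1 table of FPKM values with gene lengths. The submitters' processing notes name the builds GRCm38 and mm10, with no role or order, and these tools: DESeq2 1.20.0, featureCounts 1.5.0-p3, HISAT2 2.0.5, CASAVA. FPKM multiplied by gene length was a whole multiple of what 1 read is worth, within 0.01 read, for 100% of values, which gave the recovered reads. The implied library size was 0.952 to 0.988 times their sum in controls and 1.04 to 1.07 times in Wtap-βKO libraries. The authors' FPKM had thus been scaled between libraries by more than the read total, and this scaling differed between the groups.

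Values were analysed as log2(FPKM + 1) with limma 3.58.1 in R 4.3.3 (lmFit, then eBayes with trend). Tests were two-sided, p-values were adjusted by Benjamini and Hochberg's method over every gene whose mean FPKM reached 0.5, and the threshold was 0.05. The fit was tested on simulated data in which 200 genes were changed. Of 100 genes changed 1.5-fold it called 28, and of 100 changed 2-fold it called 75, all in the right direction. It also called 10 of 15749 unchanged genes. Far more genes were called in the real data, so these rates need not hold there. A member without a call may still have changed. The members, the lists, the cell type markers and the tests were chosen with earlier results of these data known. The text names all 10 members, Wtap, Ins1, Ins2 and Gcg, the paralogs Igf2bp1, Igf2bp3 and Raly, and from each list the called genes whose mean FPKM reached 1, at most 4, taken by adjusted p. Iapp was named after its values were seen. Replicates are separate pools of islets per the labels. One item of a marker list is not reported here.

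The 18 alternatives were median-of-ratios scaling, scaling without the 50 highest genes or to total recovered reads, quantile normalization, pseudocounts of 0.1 and 0.5, no filter, a mean FPKM of at least 5, no or a robust variance trend, limma voom on recovered reads, a replicate block, and leaving out each library. The median-of-ratios factor was 1.007 in every library, so that alternative could hardly move any result. GENCODE M21 held 54409 of the gene identifiers, 53499 with the same coordinates. Promoters came from RefSeq (GRCm38.p6), and 8 of 10 members had a window. Near copies were transcripts of other genes with at least 95% identity over at least 100 bases of a member's transcript (blastn 2.17.0). Python 3.11.15, pandas 2.3.3 and matplotlib 3.10.9 were used.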

Additional observations from a re-analysis of the deposited data

How the results depend on the processing

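Of 177 values of the 10 members under the alternatives, 159 kept their direction and their side of the threshold, 4 were called in addition, 14 turned in sign and 0 lost a call. Those kept under median-of-ratios scaling were bound to be nearly the same, since its factor was 1.007 in every library. With values scaled to total recovered reads, 3 members were called higher (Ythdf2, Ythdf1 and Hnrnpa2b1), 2335 genes of the table were higher and 1094 lower, and 5 list genes were higher and 4 lower. Under that scaling 5 members and 42.3% of all genes had groups that did not overlap, and the Wtap-βKO over control ratio was 1.21 for the summed YTHDF FPKM and 1.11 for the summed eraser FPKM. Quantile normalization called 2 members higher (Ythdf2 and Ythdf1), gave 6 members (40.6% of all genes) without overlap and an eraser ratio of 1.07, and scaling without the 50 highest genes gave 5 members (40.8%). Limma voom on recovered reads called 1 member lower, Fto. Scaling to total recovered reads divided the controls by 1.02 to 1.058 and the Wtap-βKO libraries by 0.9433 to 0.9718. By arithmetic this raises the difference of every expressed gene. The cause of that difference in factors, and of the other shifts, was not tested. Ythdf3 turned to 0.009996, 0.0796 and 0.0303 on the log2 scale with scaling without the 50 highest genes, to total recovered reads and with quantiles, Ythdc1 to 0.0299, 0.0936 and 0.00158, and Ythdc2 to 0.0359 with total recovered reads. Leaving out 1 library at a time gave -0.0738 to 0.0365 for Ythdf3, -0.0738 to 0.0464 for Ythdc1 and -0.0192 to 0.0449 for Hnrnpc. It gave 782 to 1380 higher and 1027 to 1853 lower genes in the table, 4 to 10 lower list genes, and 3 to 5 members without overlap (47.7% to 53% of all genes), with fewer samples. Ythdf2 was the 1 member called in each of these 6 fits. Libraries share replicate numbers across groups. Deviations of same-numbered libraries correlated at 0.03, 0.04 and 0.02, each library correlated best with its own number, and the labels name no shared source, so the numbers were not taken as pairs. With the replicate block 1148 genes were higher and 1490 lower, 1 member was higher (Ythdf2, adjusted p = 0.0134 by limma) and Mettl5 was no longer called (adjusted p = 0.0878). A mean FPKM of at least 5 left out Fto, Ythdc2 and Igf2bp2.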
